A study of Mus musculus with 2 samples.

Results

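A set of 10 genes of the bone morphogenetic protein (BMP) pathway were followed in mouse embryonic stem cells with a knocked-down long noncoding RNA, linc1557. They are the ligand gene Bmp4, the inhibitory SMAD genes Smad6 and Smad7, the decoy receptor gene Bambi, the ID genes Id1, Id2, Id3 and Id4, and the homeobox genes Msx1 and Msx2. These 10 genes were picked by symbol for their place in the pathway, and all 10 were found among the 46983 genes of the deposited count table. There were 2 RNA sequencing libraries. The sh1557 library came from 46C, a line of mouse embryonic stem cells with a reporter at the Sox1 gene, after infection with a pLKO.1 short hairpin against linc1557. The shCtrl library came from 46C cells with a control hairpin. Cells of both were grown on feeder cells in medium with serum and leukaemia inhibitory factor (LIF), selected with puromycin, and picked as stably infected clones; the number of clones in each library is not stated. Each hairpin is represented by 1 library, so a clone, a culture and the knockdown cannot be told apart, and linc1557 itself was not matched to a gene of the table and is not analysed here.

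BMP ligands bind paired type I and type II serine/threonine kinase receptors, which phosphorylate SMAD1 and SMAD5. These join SMAD4 and switch on a small set of direct target genes, with the ID genes foremost. ID proteins lack a DNA-binding region and hold E proteins and other basic helix-loop-helix (bHLH) factors away from DNA. In mouse embryonic stem cells, BMP from serum or added to the medium works beside LIF, and ID proteins are known as its effectors in blocking neural differentiation. SMAD6, SMAD7 and BAMBI are induced by the pathway and feed back on it, and MSX1 and MSX2 are homeobox targets of BMP in mesoderm, neural crest and limb.

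The sh1557 library held 26693282 counts and the shCtrl library 23146210. Since each group had 1 library, nothing could be tested across replicates and no p-value is given. A gene entered the comparison at 1 CPM, the count scaled to library size with trimmed mean of M values (TMM) factors, in either library, and 15850 genes did. A gene was called when the sh1557 over shCtrl ratio was at least 2-fold either way and its exact 95% Clopper-Pearson interval did not hold 1. That interval, given in brackets, covers counting error only and leaves the variation among cultures and clones unmeasured. By this rule 9.48% of entered genes were lower and 4.68% were higher in the sh1557 library, and log2 ratios over all entered genes had a median of 0.02 and quartiles of -0.35 and 0.33.

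Of the 10 genes, Id3 and Msx1 were called, Id3 at 2.57-fold lower and Msx1 at 20.7-fold lower in the sh1557 library. Id1 at 1.60-fold higher, Smad7 at 1.35-fold higher, Bmp4 at 1.16-fold higher and Bambi at 1.44-fold lower were not called but had intervals that did not hold 1, and all but Bmp4 of these lay outside the quartiles of all genes. Id2, Id4 and Smad6 were not called either, and their intervals held 1. Msx2 did not enter, with 13 counts in the sh1557 and 12 in the shCtrl library. Of the 9 members that entered, 2 were called lower (beside 9.48% of all entered genes) and 0 were called higher (beside 4.68%). Msx1 entered only through the shCtrl library, where it was high, so its entry and its call are not independent.

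**Figure D1:**
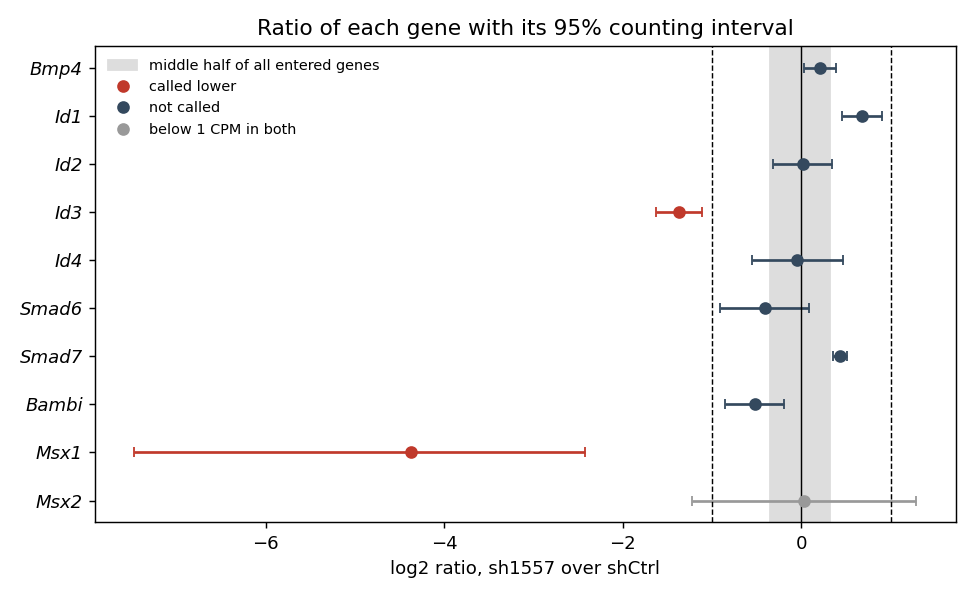
Log2 ratio of each of the 10 genes, sh1557 over shCtrl (x axis); bars are exact 95% counting intervals, dashed lines mark 2-fold, and the grey band spans the quartiles of all 15850 entered genes. Id3 and Msx1 lie left of the 2-fold line with their whole intervals, and Msx2 has too few counts for a narrow interval.

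Bmp4, the ligand, had 544 counts in the sh1557 library and 443 in the shCtrl library. That is 21.2 CPM in the sh1557 library and 18.4 CPM in the shCtrl library, a 1.16-fold higher level (1.02 to 1.31) that was not called. In CPM per kilobase of gene length, the scale used below to compare levels of different genes, Bmp4 stood at 9.55 in the sh1557 and 8.26 in the shCtrl library. At these levels it passed 70.0% of entered genes in the sh1557 library and 67.0% in the shCtrl library. Bmp4 (ENSMUSG00000021835) lies on chromosome 14 of GRCm38 from 46383520 to 46390669 on the minus strand. A pair of annotated genes on the opposite strand overlap it, Gm15217 with 3 counts in the sh1557 and 1 in the shCtrl library and Gm15222 with 5 in the sh1557 and 2 in the shCtrl library. No strand setting is stated, so how reads over the shared stretches were assigned is not known. The counts of both overlapping genes are small beside those of Bmp4.

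The genes nearest to Bmp4 had lower ratios than Bmp4 itself. Within 500 kb of the gene, 5 other protein-coding genes entered, all of which start upstream of it, and 4 of the 5 were lower in the sh1557 library, with a median log2 ratio of -1.27. That count stands beside 9.48% of all entered genes and 19.2% of those on chromosome 14, where 103 of 537 were lower and 15 were higher. These genes, named after their values were seen, are Samd4 (3.14-fold lower), Cgrrf1 (2.45-fold), Gmfb (2.41-fold) and Cnih1 (2.26-fold), and the other, Cdkn3, was 1.70-fold lower (1.22 to 2.37) and not called. Their starts lie between 370 and 492 kb from that of Bmp4. Within 5 Mb, 10 of 40 neighbours were lower and 0 were higher (beside 4.68%), with a median of -0.51, and over the whole of chromosome 14 the median was -0.43. The log2 ratio of Bmp4 was 0.21 (0.03 to 0.39), and 3 of the 40 neighbours had ratios above it: Gch1 at 0.42 (-0.14 to 0.98), Atg14 at 0.29 (0.09 to 0.49) and Gm7324 at 0.22 (0.06 to 0.38). For comparison, around Id3 1 of 18 neighbours within 500 kb was higher and 0 were lower, with a median of 0.11. Around Msx1 1 of 7 was lower and 0 were higher, with a median of -0.13. The distances and these 3 genes were chosen after the data had been seen.

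**Figure D2:**
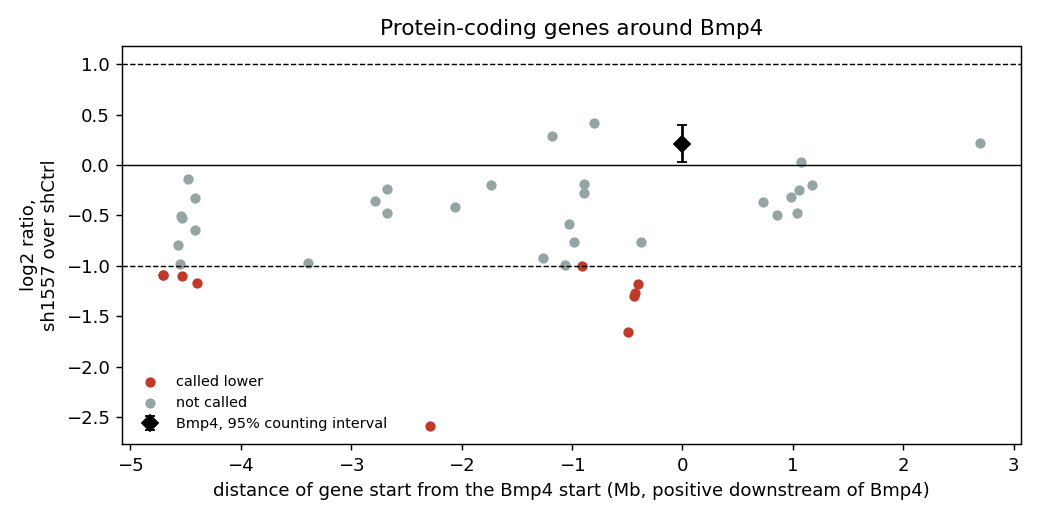
Log2 ratio, sh1557 over shCtrl (y axis), of entered protein-coding genes by the distance of their start from the Bmp4 start in Mb (x axis, positive values downstream of Bmp4); dashed lines mark 2-fold. Bmp4, at 0.21 with its 95% counting interval, lies above 0, while 10 of the 40 other genes are called lower and 0 are called higher.

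The ID genes did not move together. Id1 had 460 counts in the sh1557 and 270 in the shCtrl library, Id2 160 in the sh1557 and 149 in the shCtrl library, Id3 180 in the sh1557 and 436 in the shCtrl library, and Id4 68 in the sh1557 and 66 in the shCtrl library. Id1 was thus higher by counts, Id3 lower, and Id2 and Id4 were nearly level. Id1, the ID gene most often used as a readout of BMP signalling, was 1.60-fold higher (1.38 to 1.87), short of the 2-fold threshold and called only when the threshold was set at 1.5-fold. Id3, which in many tissues is expressed alongside Id1, was 2.57-fold lower (2.16 to 3.08). Id2, which besides E proteins binds the retinoblastoma protein, had a ratio of 1.01 (0.80 to 1.27). Id4, best known from neural progenitors and the germline, had a ratio of 0.97 (0.68 to 1.38), and its antisense neighbour A330033J07Rik had 2 counts in the sh1557 and 1 in the shCtrl library.

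In level per kilobase the family as a whole hardly differed, with a summed level of 25.9 in the sh1557 library and 26.3 in the shCtrl library, but its make-up did. The summed level depends on the gene lengths that the counts are divided by, and no interval was set on it. Id1 made up 59.7% of the sum in the sh1557 library and 36.8% in the shCtrl library. Id3 made up 15.1% in the sh1557 library and 38.4% in the shCtrl library. Id2 contributed 19.0% in the sh1557 and 18.5% in the shCtrl library, and Id4 6.17% in the sh1557 and 6.28% in the shCtrl library. The shares that differed were those of Id1 and Id3, with the other members' shares nearly equal in both libraries.

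**Figure D3:**
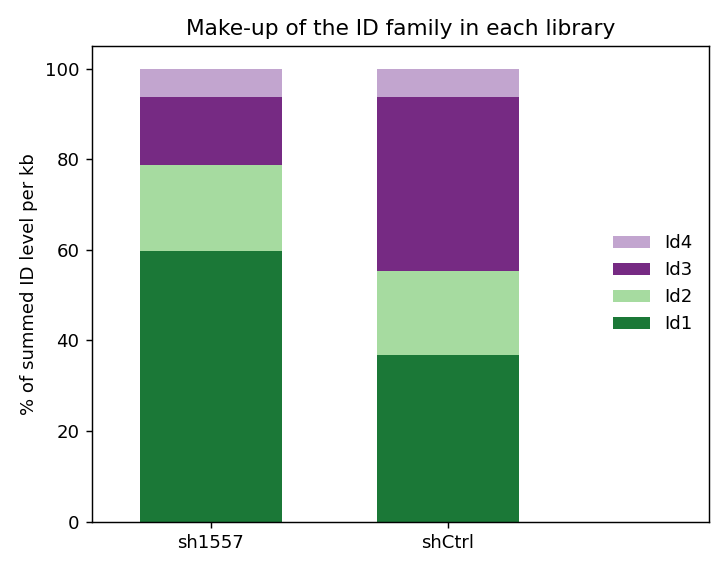
Share of each ID gene in the summed ID level per kilobase (y axis, percent) in the sh1557 library and the shCtrl library. Id1 takes 59.7% in the sh1557 library and 36.8% in the shCtrl library, Id3 takes 15.1% in the sh1557 library and 38.4% in the shCtrl library, and the Id2 and Id4 segments are of nearly the same height in both.

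A quotient of 2 genes within a library is free of library scaling, so it was used to compare the ID genes with each other. There were 2.56 counts of Id1 for each count of Id3 in the sh1557 library and 0.62 in the shCtrl library, a 4.13-fold difference (exact 95% interval 3.26 to 5.23). Id2 per Id3 was 2.60-fold apart (1.94 to 3.48) and Id4 per Id3 2.50-fold (1.67 to 3.72), both higher in the sh1557 library. Id1 per Id2 was 1.59-fold higher (1.20 to 2.09) and Id1 per Id4 1.65-fold higher (1.12 to 2.44). Id2 per Id4 was 1.04-fold apart, with an interval of 0.68 to 1.60 that allows a difference of over 1.5-fold. Id3 therefore stood lower against each of its relatives, Id1 stood higher against each, and for Id2 and Id4 no difference was detectable at this depth.

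Id1 (ENSMUSG00000042745) lies on chromosome 2 from 152736251 to 152737410, Id2 (ENSMUSG00000020644) on chromosome 12 from 25093799 to 25097140, Id3 (ENSMUSG00000007872) on chromosome 4 from 136143497 to 136145755, and Id4 (ENSMUSG00000021379) on chromosome 13 from 48261228 to 48266026, all in GRCm38. Promoter sequence from RefSeq (GRCm38.p6) was found for 7 of the 10 genes, from 250 bases before to 50 after the annotated start. No entry was found for Id1, Smad7 and Bambi, which were not searched. The 7 windows were searched on both strands for GGCGCC, the GC-rich SMAD1 and SMAD5 site known from the mouse Id1 gene, and for GTCT, the half-site of SMAD4, as well as for the palindrome GTCTAGAC, which holds GTCT on each strand, and for GGCGCC followed after 5 bases by GTCT. The motif GGCGCC was found in 2 of the 7, Id2 and Id4, and in 11.9% of all 32817 promoter windows of that length. Id3 had 3 matches to GTCT, a short motif held by 88.0% of all windows, and none to GGCGCC. None of the 7 held the spaced pair of both, which is found in 0.0731% of all windows. The GC content of the 7 windows was 60.0% to 73.3%, against a median of 52.7% over all windows. A match is a stretch of letters and no evidence of binding, and no count in these libraries bears on it.

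The Id4 promoter is shown because its upstream window holds GGCGCC (in capitals) outside any annotated exon. It is chr13:48260866-48261115 on the plus strand, 5′ to 3′.
Id4 promoter: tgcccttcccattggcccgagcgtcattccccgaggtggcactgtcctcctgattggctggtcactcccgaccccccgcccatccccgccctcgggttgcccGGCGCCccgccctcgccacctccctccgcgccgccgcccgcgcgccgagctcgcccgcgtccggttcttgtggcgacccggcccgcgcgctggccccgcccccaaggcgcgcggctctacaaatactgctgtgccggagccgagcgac
The upstream window of Id3 lies wholly in an exon of a longer annotated Id3 transcript and is not printed.

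The inhibitory SMAD genes differed from each other far more in level than between libraries. Smad7, whose protein blocks the type I receptors of both the BMP and the TGF-beta branch, had 3177 counts in the sh1557 and 2208 in the shCtrl library. It was 1.35-fold higher (1.28 to 1.43) and not called. Smad6, whose protein acts mainly on the BMP branch, had 64 counts in the sh1557 and 80 in the shCtrl library, 1.33-fold lower with an interval of 0.94 to 1.87. Smad7 was thus slightly higher in the sh1557 library beyond counting error, and for Smad6 no difference was detectable at this depth. In level per kilobase Smad7 stood at 27.4 in the sh1557 and 20.3 in the shCtrl library, and Smad6 at 0.78 in the sh1557 and 1.04 in the shCtrl library, so Smad7 made up 97.2% of the pair in the sh1557 and 95.1% in the shCtrl library. Smad7 counts per Smad6 count were 1.80-fold higher in the sh1557 library (1.27 to 2.55). Smad6 (ENSMUSG00000036867) lies on chromosome 9 from 63953076 to 64022059.

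Smad6 held the palindrome GTCTAGAC, which occurs in 70 of the 32817 windows (0.213%) and in no other of the 7 found. The match begins 4 bases before the annotated start and spans it. The 24 bases around it, chr9:64022048-64022071 on the minus strand, are given 5′ to 3′ with the palindrome in capitals because it is the rarest motif matched among the 7 windows.
Smad6 site: gccaaagtGTCTAGACtggcatat
Smad6 itself was not called, so the site goes with no difference that could be measured here.

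Bambi encodes a receptor-like protein that lacks the kinase domain and sits in receptor complexes without signalling. It had 134 counts in the sh1557 and 181 in the shCtrl library, 1.44-fold lower (1.14 to 1.81) and not called. Bambi (ENSMUSG00000024232) and Smad7 (ENSMUSG00000025880) both lie on chromosome 18, from 3507923 to 3516404 and from 75367529 to 75395935. Of the 3 feedback genes, Smad7 was thus above 1, Bambi was below 1, and the interval of Smad6 held 1.

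The MSX genes were the rarest of the 10. Msx1 had 2 counts in the sh1557 and 39 in the shCtrl library, and Msx2 had 13 counts in the sh1557 and 12 in the shCtrl library. Msx1 was 20.7-fold lower, with an interval of 5.36 to 177 that reflects the 2 counts. Msx2 had a ratio of 1.02, and its interval of 0.43 to 2.44 allows a difference of over 2-fold in either direction. The level of Msx1 per kilobase was 0.03 in the sh1557 and 0.52 in the shCtrl library, which passed 0.259% of entered genes in the sh1557 and 9.63% in the shCtrl library. Msx1 (ENSMUSG00000048450) lies on chromosome 5 from 37820485 to 37824583 and Msx2 (ENSMUSG00000021469) on chromosome 13 from 53466884 to 53473074.

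The promoter of Msx1, the lowest of the 10 by ratio, is shown as the member with neither GGCGCC nor GTCT on either strand. It is chr5:37824586-37824835 on the minus strand, 5′ to 3′, in lower case throughout since no motif was matched.
Msx1 promoter: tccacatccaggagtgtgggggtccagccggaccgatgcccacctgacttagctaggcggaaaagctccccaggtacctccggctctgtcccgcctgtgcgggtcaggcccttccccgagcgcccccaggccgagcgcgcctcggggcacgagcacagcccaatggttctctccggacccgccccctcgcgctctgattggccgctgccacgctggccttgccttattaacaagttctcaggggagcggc
The window reaches 250 bases only, and the absence of these letters says nothing of SMAD binding elsewhere at the gene.

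The order of levels per kilobase changed at 1 place among the better expressed genes. In the sh1557 library it ran Smad7 (27.4), Id1 (15.5), Bmp4 (9.55), Id2 (4.92), Id3 (3.92), Id4 (1.60), Bambi (1.04), Smad6 (0.78), Msx2 (0.15) and Msx1 (0.03). Neighbours whose 95% Poisson intervals overlapped there were Id2 and Id3, Bambi and Smad6, and Msx2 and Msx1. In the shCtrl library it ran Smad7 (20.3), Id3 (10.1), Id1 (9.65), Bmp4 (8.26), Id2 (4.87), Id4 (1.65), Bambi (1.49), Smad6 (1.04), Msx1 (0.52) and Msx2 (0.15). The intervals of Id3 and Id1, Id1 and Bmp4, Id4 and Bambi, and Bambi and Smad6 overlapped there. Id3 had rank 5 in the sh1557 library and rank 2 in the shCtrl library, and Msx1 and Msx2 changed places at the bottom.

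**Figure D4:**
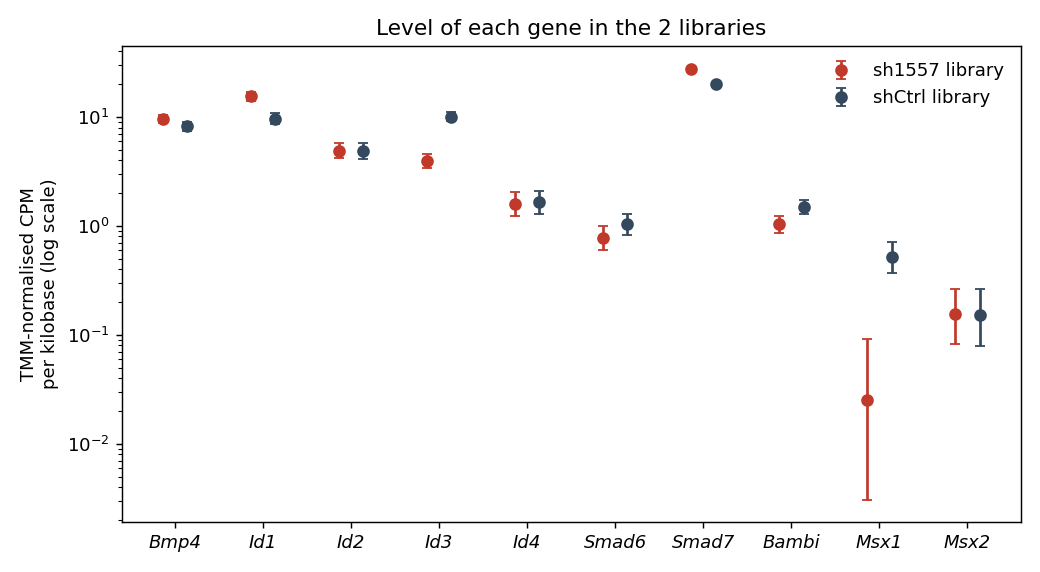
Level of each gene as TMM-normalised CPM per kilobase (y axis, log scale) in the sh1557 library (left of each pair) and the shCtrl library (right); bars are 95% Poisson intervals of the counts. Id3 and Msx1 show the widest gaps, and Smad7 is the highest in both libraries.

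Genes up and down the pathway were described from 7 lists with 94 genes, of which 59 entered. Of these, 14 were lower and 1 was higher in the sh1557 library (beside 9.48% and 4.68% of all entered genes), and their median log2 ratio was -0.42. Of the 14, 6 entered only through the shCtrl library, where they were high, so their entry and their call are not independent: Bmp2, Bmpr1b, Cer1, Nbl1, Cdx2 and Runx2. The 1 higher gene, Tbx20, entered only through the sh1557 library. Of the 12 extracellular antagonists and processing proteases that entered, 7 were lower (beside 9.48%) and 0 were higher (beside 4.68%), with a median of -1.03. The receptors, SMADs and intracellular modulators together had 4 lower and 0 higher of 30. Whether the lists differ from each other was not tested.

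Among 14 other BMP and GDF ligands 5 entered, of which 1 was lower (beside 9.48%) and 0 were higher, with a median of -0.79. Bmp2, the closest relative of Bmp4, had 4 counts in the sh1557 and 59 in the shCtrl library and was 15.7-fold lower (5.81 to 59.4). Gdf3, a TGF-beta family ligand of pluripotent cells, was the most abundant of the list, with 537 counts in the sh1557 and 974 in the shCtrl library. It was 1.93-fold lower (1.73 to 2.15), not called, and called lower when scaled by total counts. Bmp7 had a log2 ratio of -0.51 and Bmp8a of 0.91 (0.12 to 1.74), neither of them called. Bmp8b, named after its value was seen, went the other way at -0.79 (-1.54 to -0.07) and was not called.

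Among the signalling receptors, Bmpr1a, Bmpr2 and Acvr1 had log2 ratios near 0, and others lay on both sides of 0. Bmpr1a, the main type I receptor gene of these cells by level, had 1802 counts in the sh1557 and 1795 in the shCtrl library, a log2 ratio of -0.08. Bmpr2, a type II receptor, had 1940 counts in the sh1557 and 1825 in the shCtrl library, a log2 ratio of 0.00 (-0.09 to 0.09). Acvr2b, a type II receptor that activins and BMPs use, was at -0.79 (-1.07 to -0.51) and not called. The type I receptor genes Acvr1 at -0.03 (-0.45 to 0.39) and Acvrl1 at 0.39 (0.03 to 0.76), named after their values were seen, were not called either. Nor was the type II receptor gene Acvr2a at 0.19 (0.002 to 0.39), also named after its value was seen. Of the 12 receptor and co-receptor genes, all of which entered, 3 were lower (beside 9.48%) and 0 were higher, with a median of -0.42. The 3 were the co-receptor genes Tgfbr3 (betaglycan, 2.68-fold lower, 2.25 to 3.21) and Rgmb (2.14-fold, 1.64 to 2.81) and the sparsely counted type I receptor gene Bmpr1b (2.17-fold, 1.32 to 3.65, from 25 counts in the sh1557 and 51 in the shCtrl library).

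Behind the receptors, none of the 7 entered SMAD and TAK1 branch genes was called (beside 9.48% lower and 4.68% higher of all entered genes), with a median of -0.02. That median does not mean that each gene was level, as 4 of the 7 were below 0 and 3 above. Smad1 at -0.46 (-0.67 to -0.26) and Smad5 at 0.33 (0.21 to 0.46), named after their values were seen, went opposite ways. Smad4, the shared partner SMAD, had a log2 ratio of -0.02 (-0.13 to 0.08). Map3k7, which encodes the kinase TAK1, was at -0.20 and its adaptor gene Tab2 at -0.27. Of 11 intracellular modulators, 1 was lower and 0 were higher, with a median of -0.33, and a count of 1 in 11 is near the 9.48% of all genes. It was the small phosphatase gene Ctdspl, at 2.81-fold lower (2.01 to 3.97). The SMAD phosphatase gene Ppm1a was at 0.06, and the co-repressor genes Skil and Ski were at -0.60 and -0.42, none of them called.

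Extracellular antagonists bind BMPs or related ligands before they reach the receptor, and this list had the most calls. Cer1, an inhibitor of NODAL and BMP made by early endoderm, had 3 counts in the sh1557 and 892 in the shCtrl library, 316-fold lower (108 to 1535). Fst, which binds activins and some BMPs, had 83 counts in the sh1557 and 526 in the shCtrl library, 6.73-fold lower (5.33 to 8.59). Nbl1, of the DAN family, was 3.29-fold lower (1.98 to 5.66) and Chrd, which encodes chordin, 2.62-fold lower (1.93 to 3.60). Fstl1, a secreted follistatin relative, was 2.09-fold lower (1.97 to 2.22) from 1655 counts in the sh1557 and 3257 in the shCtrl library. The other members called do not antagonise BMP but cut chordin: Tll1 was 3.39-fold lower (2.72 to 4.25), and Bmp1, named after its value was seen and a protease despite its symbol, 2.00-fold lower (1.75 to 2.30). Bmp1 stood at the threshold, with a log2 ratio of -1.003. It lost its call with DESeq2 size factors, TMM factors from nuclear protein-coding genes, a prior count of 2 or thinning, and at 4-fold. Grem1, a DAN family antagonist, was 1.83-fold lower (1.67 to 2.02) and not called. Against Bmp4, whose own count was slightly higher, there were 7.78-fold more Bmp4 counts per Fst count (5.95 to 10.2) and 2.12-fold more per Grem1 count (1.81 to 2.49) in the sh1557 library.

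Other genes known as BMP targets were mostly too rare, and 6 of 16 entered, of which 2 were lower (beside 9.48%) and 1 was higher (beside 4.68%), with a median of -0.40. Dusp9, a phosphatase gene through which BMP dampens ERK in mouse embryonic stem cells, had 1111 counts in the sh1557 and 1013 in the shCtrl library, a log2 ratio of 0.05 (-0.08 to 0.17). Cdx2, a caudal homeobox gene, had 2 counts in the sh1557 and 31 in the shCtrl library (16.5-fold lower, 4.19 to 142), and Runx2, the bone lineage factor, 13 in the sh1557 and 53 in the shCtrl library (4.33-fold lower, 2.33 to 8.66). Tbx20, a cardiac T-box gene, was 2.63-fold higher (1.53 to 4.70) from 53 counts in the sh1557 and 19 in the shCtrl library. Hey1 was at -0.85 and not called.

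Among the E proteins and other bHLH genes whose products ID proteins hold in check, 6 of 14 entered, with a median of -0.49. Of these, 0 were called lower (beside 9.48% of all entered genes) and 0 higher (beside 4.68%), which for so few genes is near those shares. Tcf3, which encodes E2A, had 1817 counts in the sh1557 and 2119 in the shCtrl library, a log2 ratio of -0.31. Tcf4, another E protein gene, had 2823 counts in the sh1557 and 1486 in the shCtrl library and was 1.79-fold higher (1.68 to 1.91), not called. It was the 1 gene of the 6 above 0, with 5 below. The E protein gene Tcf12, named after its value was seen, was 1.71-fold lower (1.57 to 1.87) and not called. Its counts were 837 in the sh1557 and 1348 in the shCtrl library. Hes1, a repressor of the same protein class, was at -0.75.

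**Figure D5:**
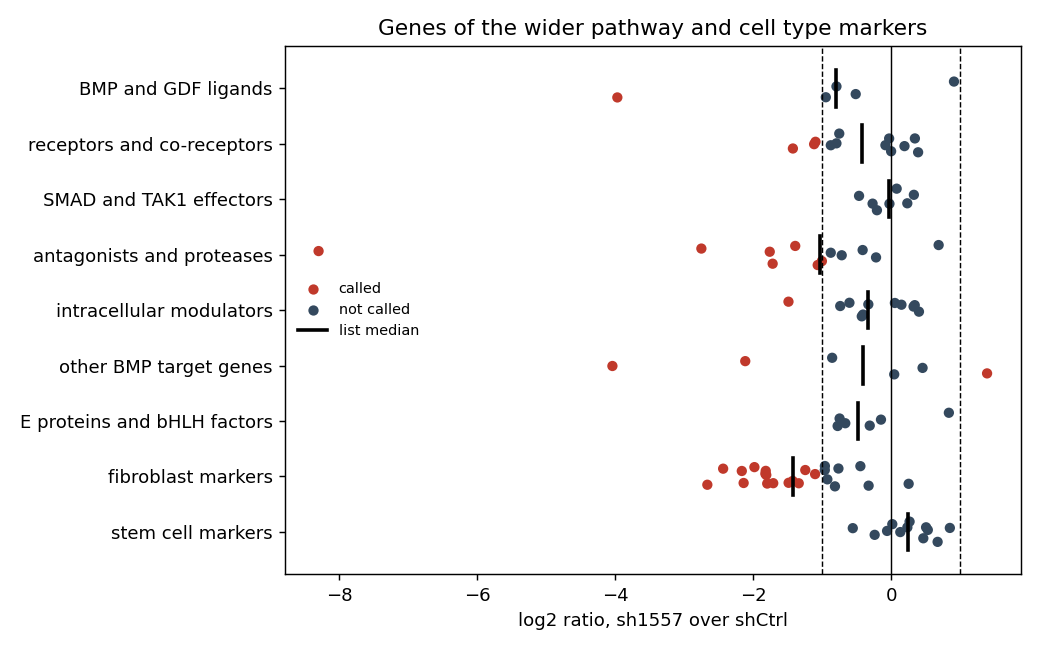
Log2 ratio, sh1557 over shCtrl (x axis), of entered genes of the 7 pathway lists and of the fibroblast and stem cell markers; each point is a gene, black bars are list medians and dashed lines mark 2-fold. The antagonist and protease list has a median of -1.03 and the fibroblast marker list one of -1.43, while the SMAD and TAK1 list has one of -0.02 and the stem cell markers one of 0.25.

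The cultures held feeder cells, and fibroblasts express several genes of these lists, so markers were read beside them. Of 23 entered fibroblast markers, 15 were lower (beside 9.48%) and 0 were higher, with a median log2 ratio of -1.43, and their summed level was 425 CPM in the sh1557 and 1330 CPM in the shCtrl library. Of the 15, 2 entered only through the shCtrl library, Snai2 and Fap, so their entry and their call are not independent. No fibroblast marker was at 0 in either library. By mean level per kilobase over both libraries the most abundant were Thy1, with a log2 ratio of -0.96, Col5a1 (-1.82), Col1a2 (-1.80) and Col5a2 (-1.81). Dcn, the decorin gene, was the 1 marker of the 23 above 0, at 0.26 (0.06 to 0.45) and not called, with 9.57 CPM per kilobase in the sh1557 and 8.02 in the shCtrl library; it was named after its values were seen. Id3 (-1.36), Fst, Fstl1, Tll1 and Tgfbr3 were lower in the same library as these markers, and the markers' part in those ratios was not tested. Fewer cells of a type and less RNA per cell cannot be told apart in such bulk samples. The 12 stem cell markers all entered and none was called (beside 9.48% lower and 4.68% higher of all entered genes), with a median of 0.25. The 4 most abundant were above 0, with Dppa5a at 0.53, Tdgf1 at 0.85, Zfp42 at 0.47 and Pou5f1 at 0.13. The 3 below 0, named after their values were seen, were Sall4 at -0.56 (-0.60 to -0.51), Utf1 at -0.24 (-0.33 to -0.15) and Klf2 at -0.06 (-0.16 to 0.05).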

How the data were processed

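RNA sequencing gave 2 libraries of 46C mouse embryonic stem cells, sh1557 and shCtrl, prepared from Trizol RNA with the TruSeq kit of Illumina, per the labels' protocols. The table deposited by the authors holds unnormalised read counts for each gene and its length. The submitters' processing notes name Trim Galore, HISAT2, featureCounts and DESeq, with the builds mm10 and GRCm38; no version, annotation release or strand setting is stated. Symbols and coordinates came from GENCODE M21 (GRCm38), which matched 46488 of 46983 identifiers; Hjv was found under its older symbol.

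Library scaling used TMM factors (edgeR 4.0.16, R 4.3.3) of 0.96 for sh1557 and 1.04 for shCtrl, and ratios and exact intervals were obtained with scipy 1.17.1 in Python 3.11.15. Genes at 0 in 1 library took a floor of 3 counts there, and genes with at most 3 counts in both got no ratio. Ratios and calls were tested on simulated data. Reads without molecular identifiers are not independent molecules, so intervals and floors cover counting error only. Alternatives were other scalings (DESeq2 1.42.0 size factors among them), filters, thresholds, a prior count of 2, thinning and centring. The members and lists were chosen with earlier results of these data known. Named beside the 10 members are, for each list, called genes up to 6 by size and the 3 most abundant per length, and 4 of each marker list. With 2 libraries no likeness of pattern was computed.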

Additional observations from a re-analysis of the deposited data

How the results depend on the processing

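No paired analysis was possible because each group had 1 library, and for the same reason no library could be left out. Over 12 alternative settings, Id3 kept log2 ratios of -1.48 to -1.32 and Msx1 of -5.17 to -3.44, while Id1 ranged from 0.56 to 0.72 and Smad7 from 0.32 to 0.48. Of the 10 genes, 2 were called lower and 0 higher. With a filter of 5 CPM, 1 was lower (Msx1, Id4 and Smad6 no longer entered), the pathway lists had 9 lower and 0 higher, and all genes had 728 lower and 330 higher, since fewer genes were tested. At 4-fold, 1 of the 10 was lower (Msx1), the lists had 5 lower and 0 higher, and all genes 389 lower and 152 higher. At 1.5-fold, 1 of the 10 was higher (Id1), the lists had 27 lower and 3 higher, and all genes 2598 lower and 1817 higher. The main counts were 14 lower and 1 higher for the lists and 1503 lower and 742 higher for all genes. With DESeq2 size factors, a prior count of 2 or thinning, the lists had 13 lower, as Bmp1 lost its call. They had 15 lower with total counts or with TMM factors from nuclear protein-coding genes, and 18 with no filter. With the protein-coding factors Bmp1 lost its call too, but more genes entered (17428 against 15850). Bmp4 ranged from 0.09 to 0.25 over the 12 settings. Scaling by total counts moved log2 ratios by -0.12, more than the 0.03 by which the main interval of Bmp4 cleared 0. Of 600 values of named genes, none called the opposite direction and 40 had another call. At 4-fold 12 lower calls were lost (Id3, Tgfbr3, Bmpr1b, Rgmb, Tll1, Nbl1, Chrd, Fstl1, Ctdspl, Col5a1, Col1a2 and Col5a2) and 1 higher call (Tbx20). With 5 CPM 6 lower calls (Msx1, Bmp2, Bmpr1b, Nbl1, Cdx2 and Runx2) and that of Tbx20 no longer entered. At 1.5-fold 7 genes became lower and 4 higher. Thy1 became lower with total counts, at 1.5-fold and with centring by expression level or gene length, and Gdf3 with total counts and at 1.5-fold. Depth limits Msx2, Smad6, Id2 and Id4, whose intervals hold 1.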
